A study of Mus musculus with 4 samples.

Results

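The 34 genes described here build cholesterol and fatty acids or control that synthesis. They were taken by gene symbol, as a list of sterol pathway enzymes, lipogenic enzymes and regulators of the sterol regulatory element-binding proteins (SREBPs). The list was chosen with earlier results of these data known. All 34 matched 1 identifier each among the 55401 in the deposited count table. RNA was sequenced from tissue beside pancreatic tumours in 2 libraries from CRFR1-KO mice and 2 from wild-type (WT) mice. The labels give Panc02, a mouse pancreatic ductal adenocarcinoma line, as the cell line for all 4 libraries, so both genotypes carried the same tumour. They describe the knockout as conditional and the genotype as CRFR1-KO. The labels name neither the cell type or promoter that drives the deletion nor the strain and age of the mice. CRFR1, encoded by Crhr1, binds corticotropin-releasing factor, a stress peptide, and the series asks which signalling lies downstream of this receptor. Since nothing in the labels ties each library to its own mouse, the p-values reflect variation among 4 libraries, part or all of which may be technical.

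SREBPs are transcription factors held in the endoplasmic reticulum membrane. When membrane sterol is low, the escort protein SCAP carries them to the Golgi, where proteases release the active part. It then enters the nucleus and switches on genes of lipid synthesis. INSIG proteins bind SCAP when sterol is plentiful and keep it in the endoplasmic reticulum. SREBP-2, from Srebf2, mainly drives cholesterol synthesis and SREBP-1, from Srebf1, mainly fatty acid synthesis. The sterol route runs from acetyl-CoA through mevalonate, farnesyl pyrophosphate and squalene to lanosterol and cholesterol. The fatty acid route makes malonyl-CoA and palmitate, which elongases and desaturases then modify. Most enzymes late in the sterol route, and the desaturases and elongases, sit in the endoplasmic reticulum membrane, in which acinar cells of the exocrine pancreas are rich. ATP-citrate lyase, acetyl-CoA carboxylase and fatty acid synthase work in the cytosol.

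Libraries held between 63495457 and 71203640 counts. Crhr1 (ENSMUSG00000018634) had 0 counts in all 4 libraries, which at a floor of 3 counts allows up to 0.0363 to 0.048 CPM (counts-per-million on scaled library sizes), so this gene gave no check of genotype. Genes of exocrine acinar cells dominated both genotypes: 10 listed acinar genes took 40.04% and 40.15% of counts in CRFR1-KO 1 and 2, against 37.9% and 38.7% in WT 1 and 2. Summed levels of 7 fibroblast genes were 151 and 162 CPM in the CRFR1-KO libraries, against 472 and 217 CPM in WT 1 and 2. Those of 6 macrophage genes were 34.4 and 56.5 CPM, against 95.6 and 72.4 CPM in WT. Islet genes were lowest in WT 1, with summed levels of 235 and 290.4 CPM in the CRFR1-KO libraries, against 39.9 and 269 CPM in WT. In bulk tissue, fewer cells of a type and less RNA per cell cannot be told apart.

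The upstream sequences below belong to members picked for the reasons given with them. Marked in them are a motif that SREBPs are known to use, present in Hmgcs1 alone, and a motif of a partner factor. Mouse upstream windows of 250 bases, RefSeq on GRCm38.p6, were at hand for 27 of the 34 members, as 36 windows. Scd2 and Scd1 were among the members without a window. Capitals mark TCACNCCAC, a sterol regulatory element, and CCAAT, the box bound by NF-Y, a factor known to act beside SREBPs, on either strand. In the member windows no match of a motif named here shared a base with a match of another. Hmgcs1 is shown for its sterol element match, Srebf1 for the largest difference between genotypes, Mvd for the largest difference upward and Fasn as the central enzyme of fatty acid synthesis. The Srebf1 window is 1 of 3, and counts per gene do not tell its start sites apart.
Hmgcs1, chr13:119690101-119690350, plus strand: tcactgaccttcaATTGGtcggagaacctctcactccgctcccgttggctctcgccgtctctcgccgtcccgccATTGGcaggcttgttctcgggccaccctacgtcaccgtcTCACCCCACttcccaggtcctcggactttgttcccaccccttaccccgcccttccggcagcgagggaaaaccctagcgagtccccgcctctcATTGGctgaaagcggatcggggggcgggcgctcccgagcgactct
Srebf1, chr11:60210472-60210721, minus strand: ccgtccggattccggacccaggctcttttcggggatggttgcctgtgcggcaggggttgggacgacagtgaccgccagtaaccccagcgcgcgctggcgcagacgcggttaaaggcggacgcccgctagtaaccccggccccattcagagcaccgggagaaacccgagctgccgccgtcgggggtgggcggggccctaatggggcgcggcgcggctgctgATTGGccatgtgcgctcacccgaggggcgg
Mvd, chr8:122443423-122443672, minus strand: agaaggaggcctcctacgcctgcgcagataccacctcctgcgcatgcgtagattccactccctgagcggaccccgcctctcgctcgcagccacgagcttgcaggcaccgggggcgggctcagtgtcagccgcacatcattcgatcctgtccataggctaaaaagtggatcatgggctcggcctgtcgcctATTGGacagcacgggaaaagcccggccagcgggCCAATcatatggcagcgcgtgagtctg
Fasn, chr11:120824548-120824797, minus strand: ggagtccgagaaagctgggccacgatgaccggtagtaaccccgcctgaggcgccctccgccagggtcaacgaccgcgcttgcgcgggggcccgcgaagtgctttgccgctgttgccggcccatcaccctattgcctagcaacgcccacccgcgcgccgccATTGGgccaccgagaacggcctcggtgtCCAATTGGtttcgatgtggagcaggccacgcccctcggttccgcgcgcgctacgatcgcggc
TCACNCCAC was found in 1 of 36 member windows (2.78%), that of Hmgcs1, 137 bases before the start, and in 1.05% of all 32851 windows. CCAAT was found in 22 of 36 member windows (61.1%), against 33.9% of all windows. GGGCGG, a letter run bound by Sp1, was in 69.4% of member windows, against 32.7% of all, and the E-box CACGTG in 16.7%, against 6.02%, all counted on both strands. These are letter matches in short windows, with no measurement of binding.

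All 34 members were detected in every library, with between 31 and 7593 counts, and all passed the filter on low counts. In 26 of them every library held over 100 counts. Per kilobase of exon, and over the 4 libraries, Insig1 had the highest level at 13.6 CPM per kb, followed by Scd2 at 11.2 and Acly at 6.03. At the low end stood Acaca at 0.24, Hsd17b7 at 0.157 and Elovl6 at 0.119 CPM per kb. Enzymes of the sterol route ran from Fdft1 at 3.08 CPM per kb, rank 7 of 34, to Hsd17b7 at rank 33, with Msmo1 at 0.554 and Lss at 0.497.

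**Figure D1:**
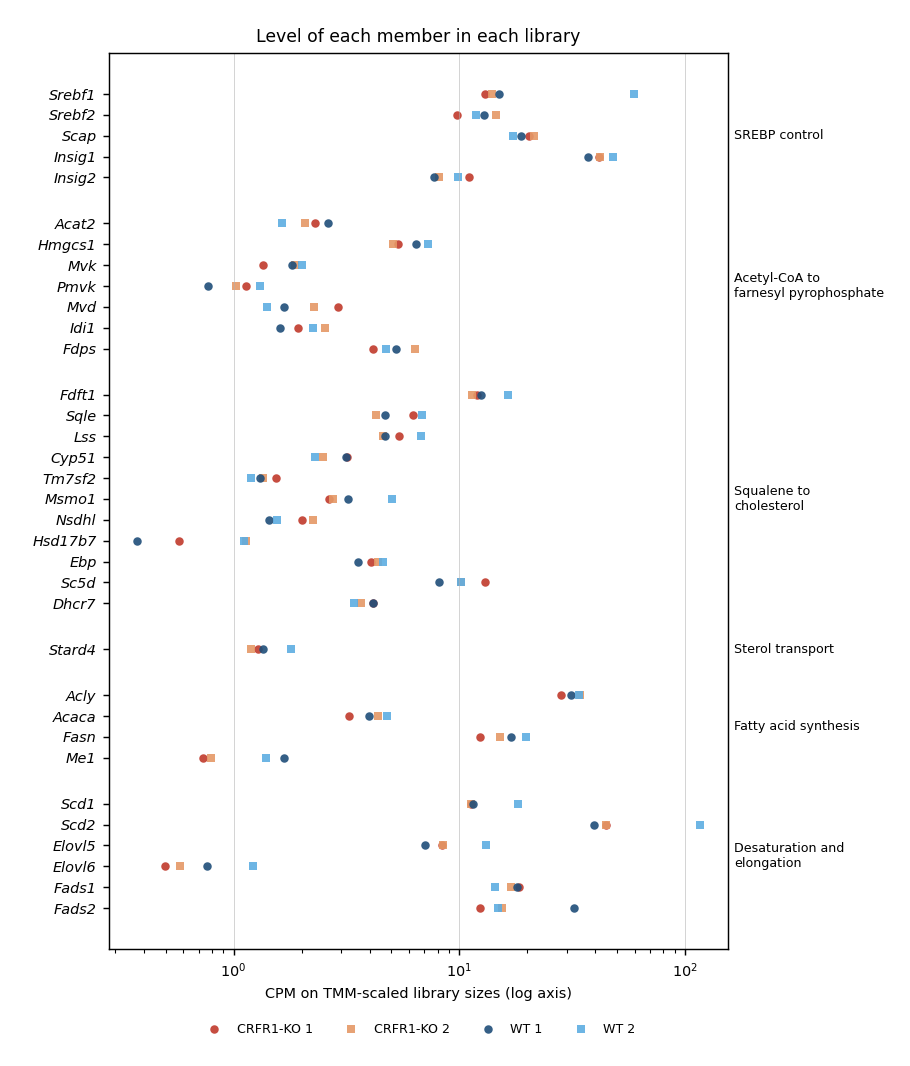
Level of each of the 34 members in each library, in counts-per-million on scaled library sizes (log axis), with CRFR1-KO libraries in red tones and WT libraries in blue tones, grouped by role. Most members lie close together in the 4 libraries, whereas Srebf1 and Scd2 stand apart in WT 2, at 59.4 and 116 CPM, and Fads2 in WT 1, at 32.0 CPM.

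With all 4 libraries, 0 of the 34 members passed the test between CRFR1-KO and WT (edgeR quasi-likelihood test, Benjamini-Hochberg adjusted over 15131 genes, threshold 0.05, adjusted p = 0.9999 for every member). Over all tested genes 4 passed, or 0.0264%. DESeq2 and limma-voom also called 0 members, where they called 59 genes (0.326%) and 0 genes (0%). At an unadjusted p under 0.05 stood 3 members, Srebf1 and Me1 lower and Mvd higher, which is 8.8% of the list, against 4.86% of all tested genes (1.71% higher and 3.15% lower). Both CRFR1-KO libraries lay above both WT libraries for 4 members (11.8%, against 16.6% of all genes) and below them for 9 (26.5%, against 16.9%). Since the members were chosen with earlier results of these data known, these shares only describe the list.

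The median log2 fold change of CRFR1-KO over WT was -0.04 over the 34 members and -0.01 over all tested genes. The 19 genes of sterol synthesis and transport had a median of 0.05, with 12 above 0 and 7 below, where 49.2% of all tested genes were above 0. This tally turned to 6 above and 13 below when scaled on library totals (median -0.11, where that of all tested genes was -0.13) and to 8 above and 11 below without CRFR1-KO 1 (median -0.03). The 10 fatty acid genes had a median of -0.41, with 9 of 10 below 0, against 50.8% of all tested genes. No test was made of the difference between the branches, and the genes of both were chosen with earlier results known. The fatty acid median was -0.57 against WT 2 alone and -0.05 against WT 1 alone, with 9 and 8 of 10 genes below 0, and the sterol median was -0.12 and 0.09, with 11 and 8 of 19 below.

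**Figure D2:**
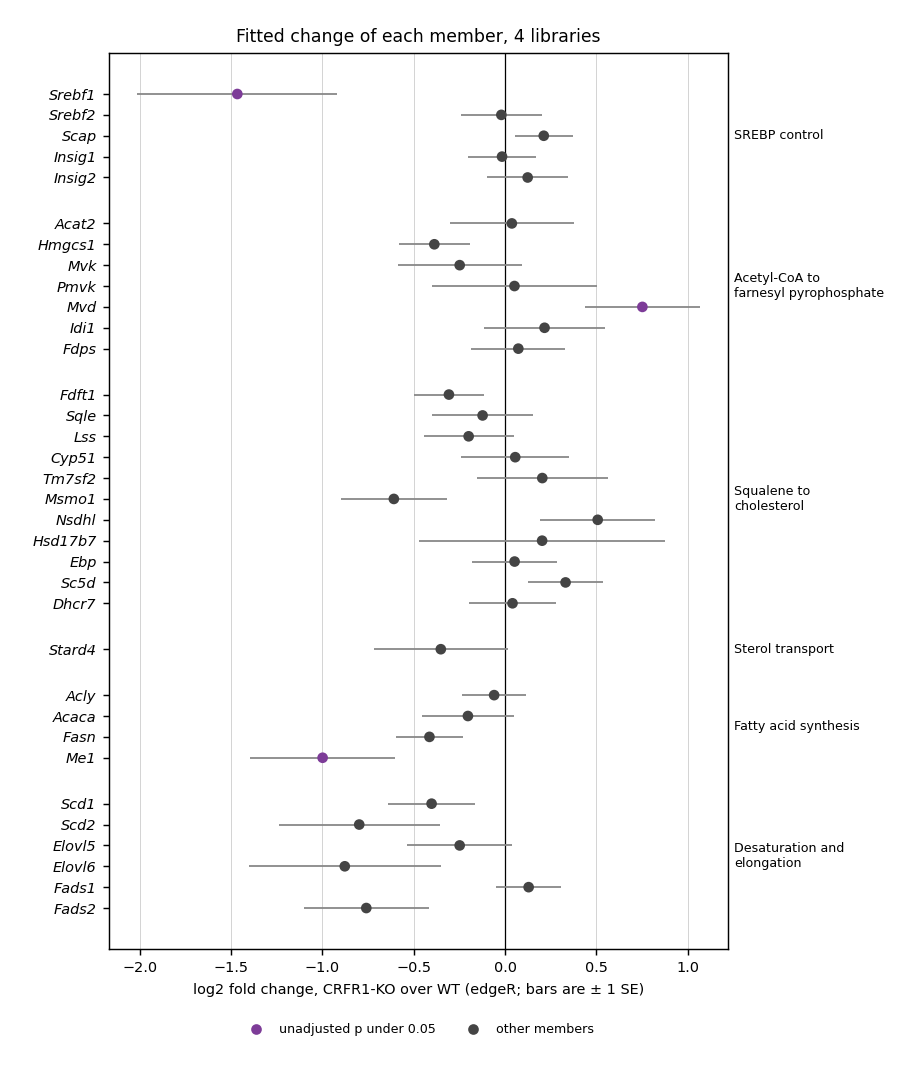
Fitted log2 fold change of CRFR1-KO over WT for each member, with bars of 1 standard error (SE), grouped by role; purple marks the 3 members at an unadjusted p under 0.05. Sterol route genes scatter around 0, and 9 of 10 fatty acid genes lie below 0, none past the adjusted threshold.

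Of the SREBP control genes, Srebf1 (chromosome 11, 60199089 to 60222581, GRCm38), encoding SREBP-1, differed most. It had 13.0 and 13.9 CPM in CRFR1-KO 1 and 2, against 14.9 and 59.4 CPM in WT 1 and 2. WT 2 was 3.98 times the next library, while WT 1 lay within 2 CPM of the knockout libraries, so the groups do not overlap but the gap rests on WT 2. Genotype means were 13.4 ± 0.7 CPM in CRFR1-KO and 37.2 ± 31.4 CPM in WT (SD, n = 2 each), and edgeR fitted a log2 fold change of -1.47 (SE 0.55, adjusted p = 0.9999). Srebf2, encoding the sterol-directed SREBP-2, did not share the pattern. It stood at 9.76 and 14.6 CPM in CRFR1-KO, against 12.8 and 11.8 CPM in WT, with overlapping groups (-0.02, SE 0.22). Per kilobase, Srebf1 exceeded Srebf2 by 1.70 and 1.22 times in CRFR1-KO 1 and 2, against 1.48 times in WT 1 and 6.41 times in WT 2.

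Scap, the sterol-sensing escort of both SREBPs, measured 20.4 and 21.4 CPM in CRFR1-KO and 18.8 and 17.3 CPM in WT. Both knockout libraries were the higher ones, by a log2 fold change of 0.21 (SE 0.16). Insig1, an SREBP target whose product retains SCAP, had 41.7 and 42.04 CPM in CRFR1-KO, against 37.0 and 47.7 CPM in WT (-0.02, SE 0.19). The knockout values lay between the WT values. Insig2, a second retention protein, gave 11.02 and 8.11 CPM in CRFR1-KO and 7.74 and 9.82 CPM in WT, again overlapping (0.12, SE 0.22).

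In the route from acetyl-CoA to farnesyl pyrophosphate, summed levels were 19.1 and 21.2 CPM in CRFR1-KO, against 20.1 and 20.6 CPM in WT. Hmgcs1, which makes HMG-CoA and whose window holds the sterol element match, had 5.36 and 5.06 CPM in CRFR1-KO, against 6.40 and 7.23 CPM in WT. Its groups do not overlap, with means of 5.21 ± 0.215 CPM in CRFR1-KO and 6.81 ± 0.59 CPM in WT (SD, n = 2 each) and a fitted difference of -0.39 (SE 0.19) on the log2 scale. Mvd (chromosome 8, 122433601 to 122443422), the mevalonate diphosphate decarboxylase, lay the other way. It had 182 and 149 counts in CRFR1-KO, against 138 and 92 in WT, which is 2.91 and 2.28 CPM in CRFR1-KO and 1.67 and 1.41 CPM in WT libraries. Both knockout libraries were above both WT libraries (log2 fold change 0.75, SE 0.31). The thiolase gene Acat2, the kinase genes Mvk and Pmvk, the isomerase gene Idi1 and the farnesyl pyrophosphate synthase gene Fdps ranged from -0.25 to 0.22 on the log2 scale, each within its SE of 0, and all 5 had overlapping groups.

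Along the 11 genes from squalene to cholesterol, summed levels were 54.7 and 48.3 CPM in CRFR1-KO, against 47.2 and 59.3 CPM in WT. Fdft1, the squalene synthase, had 11.95 and 11.35 CPM in CRFR1-KO, against 12.4 and 16.4 CPM in WT, with only WT 2 set apart (-0.31, SE 0.19). Sqle, the squalene epoxidase that controls flux late in the route, had 6.26 and 4.29 CPM in CRFR1-KO and 4.68 and 6.81 CPM in WT. Its spread within each genotype was wider than the distance between them (-0.12, SE 0.28). Msmo1, a methylsterol oxidase, had 2.64 and 2.75 CPM in CRFR1-KO, against 3.21 and 5.03 CPM in WT. Its groups do not overlap (-0.61, SE 0.29), and WT 2 was again the highest library. Nsdhl, the sterol dehydrogenase next to Msmo1 in the route, lay higher in both knockout libraries, at 2.02 and 2.25 CPM in CRFR1-KO and 1.44 and 1.56 CPM in WT (0.51, SE 0.31). Dhcr7, the last reductase of one branch, had 4.13 and 3.67 CPM in CRFR1-KO, against 4.16 and 3.41 CPM in WT (0.04, SE 0.24).

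The cyclase gene Lss, the demethylase gene Cyp51, the reductase genes Tm7sf2 and Hsd17b7, the isomerase gene Ebp and the desaturase gene Sc5d ranged from -0.20 to 0.33 on the log2 scale. Of these 6, Tm7sf2 had both knockout libraries above both WT libraries and the other 5 overlapped. Tm7sf2 shares 532 exon bases with Vps51 on the same strand, so its count depends on how reads were divided. Fdft1 overlaps 774 exon bases of the lysosomal protease gene Ctsb on the other strand. Ctsb had 5067 and 5996 counts in CRFR1-KO and 9073 and 7252 in WT, and reads of the 2 genes cannot be told apart if strand was ignored in counting, which is not stated. Stard4, a carrier that moves cholesterol between membranes, had 1.28 and 1.19 CPM in CRFR1-KO, against 1.35 and 1.80 CPM in WT (-0.35, SE 0.37).

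Fatty acid synthesis begins with Acly, which makes cytosolic acetyl-CoA from citrate. It had 28.3 and 34.1 CPM in CRFR1-KO, against 31.3 and 33.7 CPM in WT (-0.06, SE 0.18), with overlapping groups. Acaca, the acetyl-CoA carboxylase, also overlapped, at 3.25 and 4.35 CPM in CRFR1-KO and 3.99 and 4.77 CPM in WT (-0.20, SE 0.25). Fasn, the fatty acid synthase (chromosome 11, 120805846 to 120824547), lay below WT in both knockout libraries. It had 12.4 and 15.1 CPM in CRFR1-KO, against 16.9 and 19.7 CPM in WT, with means of 13.7 ± 1.9 CPM in CRFR1-KO and 18.3 ± 1.97 CPM in WT (SD, n = 2 each). Its fitted difference was -0.41 (SE 0.18) on the log2 scale. Me1, the malic enzyme that supplies NADPH (chromosome 9, 86581371 to 86695953), had 46 and 52 counts in CRFR1-KO, against 138 and 91 in WT. These counts correspond to 0.736 and 0.794 CPM in CRFR1-KO, against 1.67 and 1.39 CPM in WT, and neither WT library alone makes the gap (log2 fold change -0.999, SE 0.40).

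The desaturase and elongase genes were the group in which WT 2 stood furthest out, with summed levels of 95.3 and 97.4 CPM in CRFR1-KO, against 109 and 178 CPM in WT. Scd2, a stearoyl-CoA desaturase that makes monounsaturated fatty acids (chromosome 19, 44293674 to 44306864), had 44.7 CPM in each CRFR1-KO library, against 39.4 and 116 CPM in WT. WT 1 lay below the knockout libraries and WT 2 at 2.59 times the next library, so the groups overlap (log2 fold change -0.80, SE 0.44). Scd1, which lies nearby on chromosome 19 and has the same activity, had 11.2 and 11.3 CPM in CRFR1-KO, against 11.5 and 18.3 CPM in WT (-0.40, SE 0.24). Only WT 2 was set apart. Elovl6, the elongase acting on palmitate, was scarce, with 31 and 38 counts in CRFR1-KO, against 63 and 80 in WT, that is 0.496 and 0.58 CPM in CRFR1-KO and 0.762 and 1.22 CPM in WT libraries. Its groups do not overlap (-0.88, SE 0.53). Elovl5, which elongates polyunsaturated fatty acids, had 8.38 and 8.49 CPM in CRFR1-KO and 7.03 and 13.0 CPM in WT (-0.25, SE 0.29).

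The delta-5 and delta-6 desaturase genes Fads1 and Fads2, which act on polyunsaturated fatty acids, differed from each other. Fads1 had 18.3 and 17.0 CPM in CRFR1-KO, against 17.9 and 14.3 CPM in WT (0.13, SE 0.18). Fads2 had 12.3 and 15.4 CPM in CRFR1-KO, against 32.0 and 14.9 CPM in WT. Here WT 1, not WT 2, stood out, at 2.07 times the next library, and the groups overlap (log2 fold change -0.76, SE 0.34). WT 1 was also the library with the highest summed fibroblast and macrophage levels and the lowest islet level given above; their part in the Fads2 value was not tested.

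**Figure D3:**
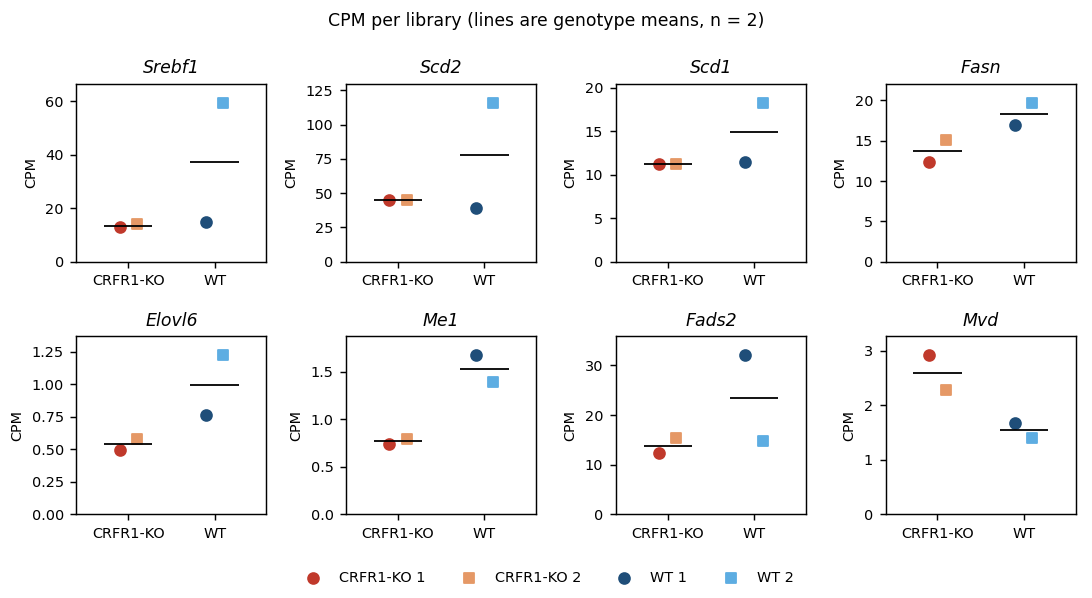
CPM of 8 members in each library, with CRFR1-KO at the left and WT at the right of each panel, points for the 4 libraries and a line at each genotype mean (n = 2). WT 2 is set apart for Srebf1, Scd2 and Scd1, WT 1 for Fads2, and both WT libraries lie on the same side of both CRFR1-KO libraries for Fasn, Elovl6, Me1 and Mvd.

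WT 2 held the highest level for 17 of the 34 members, WT 1 for 4, CRFR1-KO 1 for 6 and CRFR1-KO 2 for 7. Over all tested genes, WT 2 was highest for 27.5%, WT 1 for 26.1%, CRFR1-KO 1 for 23.2% and CRFR1-KO 2 for 23.2%. A level at least 2-fold above each of the other 3 libraries was seen for Srebf1 and Scd2 in WT 2 (1.34% of all tested genes), for Fads2 in WT 1 (1.83%), and for 0 members in CRFR1-KO 1 (0.681%) or CRFR1-KO 2 (0.734%). The 2 CRFR1-KO libraries differed from each other by a median of 0.134 on the log2 scale over the members, and the 2 WT libraries by 0.325. Over all tested genes these distances were 0.221 and 0.27.

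Setting the CRFR1-KO libraries against either WT library alone therefore gave different pictures, with the lone WT library assumed to vary as the knockout libraries do. Srebf1 and Scd2 were singled out above because WT 2 was high, and 1 library gives no spread of its own. The p-values of these fits therefore do not measure a difference between genotypes. Against WT 2 alone, Srebf1 had a log2 fold change of -2.14 and Scd2 of -1.38. At an unadjusted p under 0.05 there were then 8 members, 7 lower and 1 higher, against 8.69% of all genes. Against WT 1 alone, Srebf1 stood at -0.15 and Scd2 at 0.18. At an unadjusted p under 0.05 there was then 1 member, Fads2, against 7.34% of all genes. Fads2 stood at -1.20 with WT 1 alone, against -0.10 with WT 2 alone. Me1 moved little, at -0.86 against WT 2 alone and -1.12 against WT 1 alone, as did Mvd, at 0.88 and 0.64. The median over the members was -0.23 against WT 2 alone and -0.01 against WT 1 alone.

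**Figure D4:**
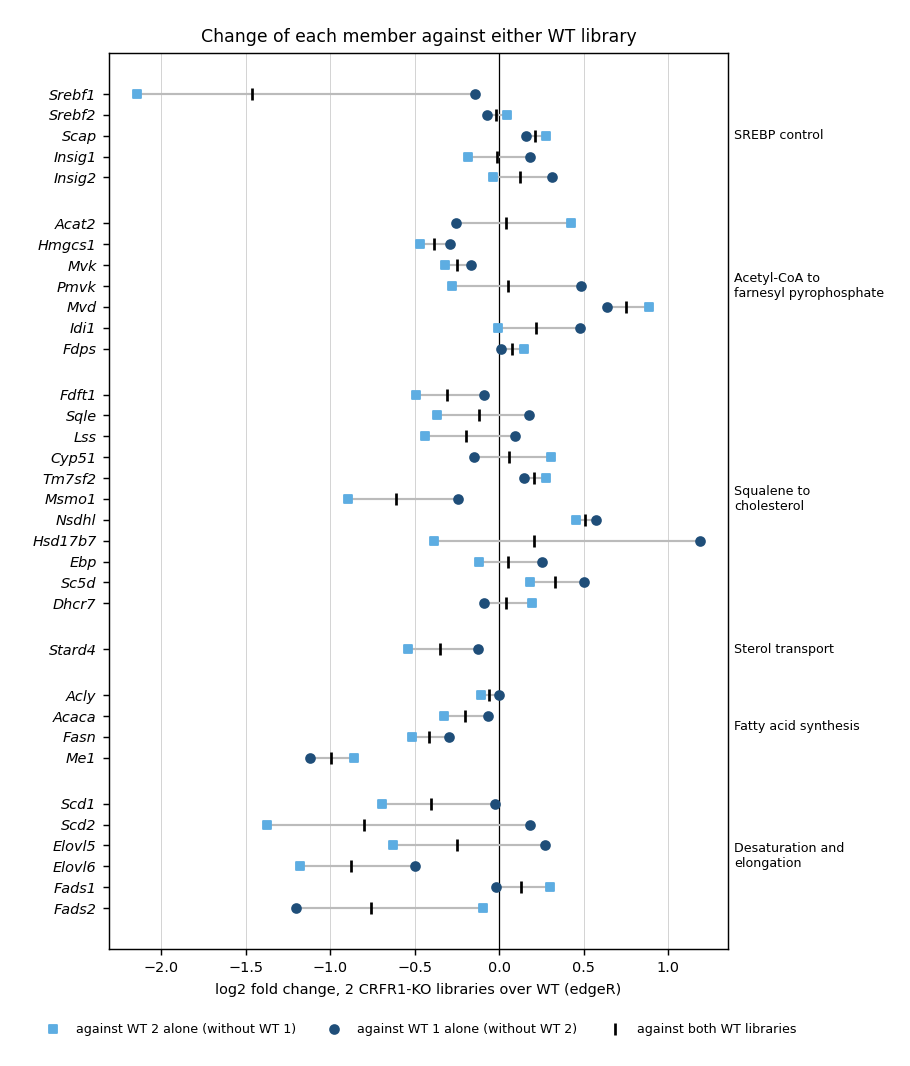
Log2 fold change of the 2 CRFR1-KO libraries for each member against WT 2 alone (light squares), WT 1 alone (dark circles) and both WT libraries (black ticks), grouped by role. Srebf1 spans -2.14 to -0.15 and Scd2 -1.38 to 0.18, whereas Me1 and Mvd keep their side of 0 against either library.

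Fat cells make much of these enzymes. Of 11 adipocyte genes, 6 were scarce: Lep had 0 counts in all libraries, and Adipoq, Plin1, Cidec, Cfd and Retn reached at most 0.183 CPM in any library. The other 5, which other cells also express, passed the filter on low counts, with mean levels over the 4 libraries of 42.8 CPM for Lpl, 12.1 CPM for Pnpla2, 8.49 CPM for Fabp4, 2.48 CPM for Lipe and 1.10 CPM for Pparg. Pparg, the nuclear receptor that drives fat cell formation, had 0.72 and 0.947 CPM in CRFR1-KO, against 1.17 and 1.54 CPM in WT (log2 fold change -0.70, SE 0.43), with both knockout libraries below both WT libraries, and the groups of the other 4 overlapped. The summed level of the 11 was 64.2 and 63.8 CPM in CRFR1-KO, against 63.1 and 77.2 CPM in WT. Hepatocyte genes were likewise scarce, with summed levels of 0.256 and 1.30 CPM in CRFR1-KO, against 0.883 and 0.153 CPM in WT. All 7 fibroblast genes and all 6 macrophage genes had log2 fold changes below 0, with medians of -1.28 and -0.82. Both knockout libraries lay below both WT libraries for all 7 fibroblast genes and for 3 of the 6 macrophage genes, against 16.9% of all tested genes. At an unadjusted edgeR p under 0.05 stood 7 fibroblast and 2 macrophage genes, all lower, against 3.15% of all tested genes. None of them passed after adjustment in edgeR, and the macrophage gene Lyz2 passed in DESeq2 (adjusted p = 0.032). All 10 acinar genes (median 0.25) and 5 of 6 islet genes (median 0.76) lay above 0, against 49.2% of all tested genes. Of 6 duct genes 4 were below 0, with a median of -0.45 and summed levels of 27.0 and 28.7 CPM in CRFR1-KO, against 34.3 and 30.1 CPM in WT. The chloride channel gene Cftr (-2.45), the bicarbonate transporter gene Slc4a4 (-1.10) and the transcription factor gene Sox9 (-0.79) had both knockout libraries below both WT libraries and an unadjusted p under 0.05, and none passed after adjustment. The part of fat, fibroblast, macrophage, acinar, islet and duct cells in the values of the members was not tested.

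Of 70 further genes around the pathway, 63 were tested and 0 passed in edgeR, with 4 lower and 0 higher at an unadjusted p under 0.05 (6.3%, against 4.86% of all genes). The median log2 fold change was -0.05. The 11 genes of sterol export, esterification and the liver X receptors (LXRs), which sense oxysterols and are known to switch on Srebf1, had a median of -0.40. Of these 11, 8 were below 0, against 50.8% of all tested genes. Abca1, the cholesterol exporter, had 10.0 and 5.67 CPM in CRFR1-KO, against 13.6 and 14.9 CPM in WT (log2 fold change -0.86, SE 0.27). Abcg1, a second exporter, had 3.54 and 3.30 CPM in CRFR1-KO, against 4.50 and 6.94 CPM in WT (-0.74, SE 0.27). Macrophages are known to express both exporters, and the part of the macrophage level given above in these values was not tested.

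Npc2, a lysosomal cholesterol carrier, lay at -0.46 (SE 0.19) and Soat1, which esterifies cholesterol, at -0.42 (SE 0.21). Both are among the 5 of the 11 export, esterification and LXR genes with both knockout libraries below both WT libraries. Over all tested genes that share was 16.9%. The receptor genes themselves, Nr1h2 and Nr1h3, stood at 0.13 and -0.06. Among fatty acid genes, Fads3, a relative of Fads1 and Fads2, had 6.34 and 6.40 CPM in CRFR1-KO, against 9.36 and 8.02 CPM in WT (-0.45, SE 0.18). Dgat2, which makes triglyceride, had 0.336 and 0.458 CPM in CRFR1-KO, against 0.399 and 2.38 CPM in WT, and thus shared the high WT 2 value of Srebf1 and Scd2 (-1.80, SE 0.83). Lpin1, a phosphatidate phosphatase, stood at -0.38 (SE 0.23) and G6pdx, a source of NADPH, at -0.34 (SE 0.20).

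The proteases that release SREBPs lay close together in the genotypes. Mbtps1 and Mbtps2 had log2 fold changes of 0.03 (SE 0.16) and -0.03 (SE 0.21). Over the 11 genes of SREBP processing and sterol sensing, log2 fold changes ran from -0.44 (Rnf145) to 0.37 (Erlin1). Rnf145, a ubiquitin ligase gene, was highest in WT 2, with 6.83 and 7.67 CPM in CRFR1-KO, against 7.20 and 12.5 CPM in WT (-0.44, SE 0.27). The 11 genes of SREBP processing and sterol sensing had a median of 0.03, the 9 tested genes of the isoprenoid branch -0.07, the 25 tested genes of other fatty acid and lipid assembly -0.05, and the 7 genes of NADPH supply -0.10. At an unadjusted p under 0.05 the processing, isoprenoid and NADPH lists held 0 genes in edgeR, and DESeq2 and limma-voom called 0 of the 70 genes after adjustment.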

How the data were processed

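Poly(A)-selected RNA was sequenced in 4 libraries. The deposited table holds whole-number counts per Ensembl gene, with no normalization. Tools named in the submitters' processing notes are FastQC, DESeq2 and edgeR; aligner, counter, strand setting, annotation and build are not stated there. Per the labels' protocols, the second strand was marked with dUTP. Columns were tied to libraries by library name, and 0 were left unused.

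Symbols, exon lengths and positions came from GENCODE M21 (GRCm38). The counts were fitted with edgeR 4.0.16 in R 4.3.3 (TMM scaling, filterByExpr, quasi-likelihood F test, group as sole term, two-sided, Benjamini-Hochberg over 15131 genes). SEs were derived from the F statistic. DESeq2 1.42.0, limma-voom (limma 3.58.1) and other scalings and filters, a replicate block and omission of each library in turn were alternatives. With 2 libraries against 2, an exact two-sided permutation test has a smallest p of 0.333 and was not run. The edgeR fit was tested on simulated data.

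Members and lists were chosen with earlier results of these data known. All members are described. Values in all libraries are given for 18 preset members, those at an unadjusted p under 0.05, and the 6 largest log2 fold changes among members whose groups do not overlap. From the pathway lists the 8 genes with the smallest p are named. Elovl5, Stard4 and others were named after their values were seen. Counts of 4 were more frequent than 3 or 5 (in WT 1, 913 genes against 349 and 242), so the size of 1 deposited count in reads is not known, and floors cover counting error only. Of the members, 4 share exon bases with another identifier on the same strand and 9 on the other.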

Additional observations from a re-analysis of the deposited data

How the results depend on the processing

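Of 34 members, 17 kept their direction under all 16 alternatives tried (Elovl6 in 15), among them Srebf1, Me1, Mvd, Fasn, Hmgcs1, Scd1 and Fads2, and 17 changed sign in at least 1, with 32 of 543 values. Scaling on library totals moved the median of all tested genes to -0.133 and of the members to -0.153, and turned Acat2 (-0.134), Pmvk (-0.0376), Fdps (-0.0419), Cyp51 (-0.11), Ebp (-0.0507), Dhcr7 (-0.109) and Fads1 (-0.0216). The count of called genes, 4, was 59 with the DESeq2 Wald test, 0 with limma-voom and 0 to 69 with a library left out (40 and 69 without WT 1 or WT 2, and 2 and 0 without CRFR1-KO 1 or CRFR1-KO 2). Members called ranged from 0 to 2 and their median from -0.234 to -0.00928 with a library left out. Fits with a library left out leave a genotype with 1 library, so their calls and p-values do not measure a difference between genotypes.

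The labels tie libraries of the same number by that number alone. The replicate differences of the genotypes had r = -0.0747 across genes, which cannot show whether such libraries shared a batch. With the replicate block 7 genes and 0 members were called, and Srebf1 stood at -1.15.

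Leaving out a library turned these members, with ranges over the 4 fits: Srebf2 (-0.328 to 0.241), Insig1 (-0.187 to 0.182), Insig2 (-0.113 to 0.337), Acat2 (-0.257 to 0.423), Pmvk (-0.282 to 0.483), Idi1 (-0.00478 to 0.479), Fdps (-0.262 to 0.352), Sqle (-0.418 to 0.176), Lss (-0.439 to 0.0915), Cyp51 (-0.15 to 0.309), Hsd17b7 (-0.384 to 1.19), Ebp (-0.119 to 0.25), Dhcr7 (-0.0905 to 0.195), Acly (-0.192 to 0.071), Scd2 (-1.38 to 0.184), Elovl5 (-0.627 to 0.268) and Fads1 (-0.018 to 0.302). Summing exon-sharing identifiers and dividing counts by 4, both chosen after seeing the data, called 0 members. They called 4 of 15130 and 6 of 12231 tested genes. The cause of these shifts was not tested. Elovl6, Me1 and Hsd17b7 are among the members with under 100 counts in at least 1 library; how far depth limits them was not tested.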
